A study of Mus musculus with 12 samples.

Results

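A set of 8 genes of cardiac pacemaking and conduction was followed through whole embryonic mouse hearts sequenced as bulk RNA. They were chosen by symbol: Hcn4, Kcnq1, Kcnh2, Kcnj2, Kcnj3, Kcnj5, Gja1 and Tbx3. All 8 were found among the 45664 symbols of the count table, and all 8 were among the 20691 genes tested. The hearts came from 12 embryos in 4 groups of 3: wild type (WT) at the embryonic stages E13.5 and E14.5, and, at the same stages, embryos with Ino80 disrupted (KO). Ino80 encodes the ATPase of a chromatin remodelling complex, and the labels describe its disruption as endothelial, through Tie2, a gene active in endothelium and endocardium and in some blood cells. That treatment text stands on the WT samples too, so group membership was read from the genotype label. Neither the strain nor the alleles, nor whether WT embryos carried any of them, are given in the labels. Litter 1 gave all 6 E13.5 embryos. Litter 2 gave WT 7, WT 8, KO 2 and KO 4 of the E14.5 embryos and litter 3 gave WT 7.2 and KO 1, so stage and litter cannot be told apart. Embryos are named here by group and the number in their label.

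The heartbeat starts in the sinus node, whose cells depolarise on their own. Part of that depolarisation is carried by HCN channels, which open when the membrane becomes negative, and Hcn4 encodes the main HCN channel of the node. The T-box repressor Tbx3 keeps nodal and other conduction cells from becoming working muscle. Potassium channels bring the membrane back to rest: Kcnq1 encodes the pore of the slow delayed rectifier, Kcnh2 that of the rapid one, and Kcnj2 a main subunit of the inward rectifier that holds working muscle at its resting potential. Kcnj3 and Kcnj5 encode the partner subunits of the channel that acetylcholine opens through muscarinic receptors and G proteins, which slows the beat. Gja1 encodes connexin 43, the gap junction protein through which impulses pass between ventricular muscle cells. Most of the 8 are best known from muscle and conduction cells, whereas the disruption is labelled endothelial.

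The 2 genes shown here in sequence are those that passed the test in some comparison and have an entry in the RefSeq promoter table (build GRCm38.p6, matched by symbol for 6 of the 8 genes). Each sequence is the 250 bases before the transcription start, on the plus strand, 5′ to 3′. Capitals mark CG dinucleotides. The Hcn4 promoter lies at chr9:58822699-58822948 and the Kcnj2 promoter at chr11:111065914-111066163.
Hcn4: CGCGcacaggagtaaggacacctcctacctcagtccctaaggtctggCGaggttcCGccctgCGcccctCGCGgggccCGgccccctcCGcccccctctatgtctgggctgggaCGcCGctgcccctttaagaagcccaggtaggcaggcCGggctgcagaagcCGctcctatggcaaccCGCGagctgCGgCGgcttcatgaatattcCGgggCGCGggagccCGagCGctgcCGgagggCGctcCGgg
Kcnj2: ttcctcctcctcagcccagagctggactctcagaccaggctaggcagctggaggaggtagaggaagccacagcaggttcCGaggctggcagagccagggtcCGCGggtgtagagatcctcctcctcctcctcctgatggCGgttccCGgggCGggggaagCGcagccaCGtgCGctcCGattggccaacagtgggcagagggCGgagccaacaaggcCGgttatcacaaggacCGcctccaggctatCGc
Hcn4 has 25 CG dinucleotides and a GC content of 71.2%, and Kcnj2 has 14 and 65.6%, where the medians of 32851 promoters are 6 and 52.4%. Both windows are thus CG-rich. The RefSeq start of Hcn4 lies upstream of the gene start in the GENCODE annotation used below. A set of 5 motifs was searched on both strands: a T-box core (GGTGTG, in 16.3% of all promoters), a GATA core (GATAA, 22.6%), an NKX2-5 motif (TNAAGTG, 10.1%), a YY1 motif (AANATGGC, 3.91%) and a TATA box (TATAAA, 12.4%). The Kcnj2 and Gja1 windows held 1 GATA core each and the Kcnj3 window 1 T-box core. None of the 5 motifs was found in the windows of Hcn4, Kcnh2 and Kcnj5. The Kcnh2 window (chr5:24329592-24329841, minus strand) lies inside the GENCODE gene, before an internal start and not before the annotated gene start. These letter matches are descriptions of the windows and are not binding sites.

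Per length of exon, connexin 43 was the most abundant of the 8 transcripts and Tbx3 the least. Levels are CPM, the counts scaled by edgeR to library size and composition, divided here by the kilobases of merged exons in the GENCODE M21 annotation. In E13.5 WT hearts Gja1 stood at 56.7 ± 4.77 CPM per kb (SD, n = 3), Kcnh2 at 30.9 ± 2.15 and Kcnj5 at 15.5 ± 0.350. Those 3 held ranks 1, 2 and 3 in every one of the 12 hearts, so their order did not depend on stage or genotype. Kcnq1 followed at 5.68 ± 0.204, Kcnj2 at 5.61 ± 1.26, Hcn4 at 4.44 ± 0.432 and Kcnj3 at 3.45 ± 0.610 CPM per kb. The values of Kcnq1 and Kcnj2 overlapped in 3 of the 4 groups, and in E13.5 KO hearts all Kcnq1 values lay above all Kcnj2 values. The values of Hcn4 and Kcnj3 overlapped except at E13.5 in WT. There the lowest Hcn4 value (4.08) lay above the highest Kcnj3 value (3.94). In E14.5 KO hearts the order of these 2 means was turned, with Hcn4 at 2.26 ± 0.182 and Kcnj3 at 2.36 ± 0.858 CPM per kb. Tbx3, with 1.92 ± 0.211 in E13.5 WT hearts, held rank 8 in all 12.

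**Figure D1:**
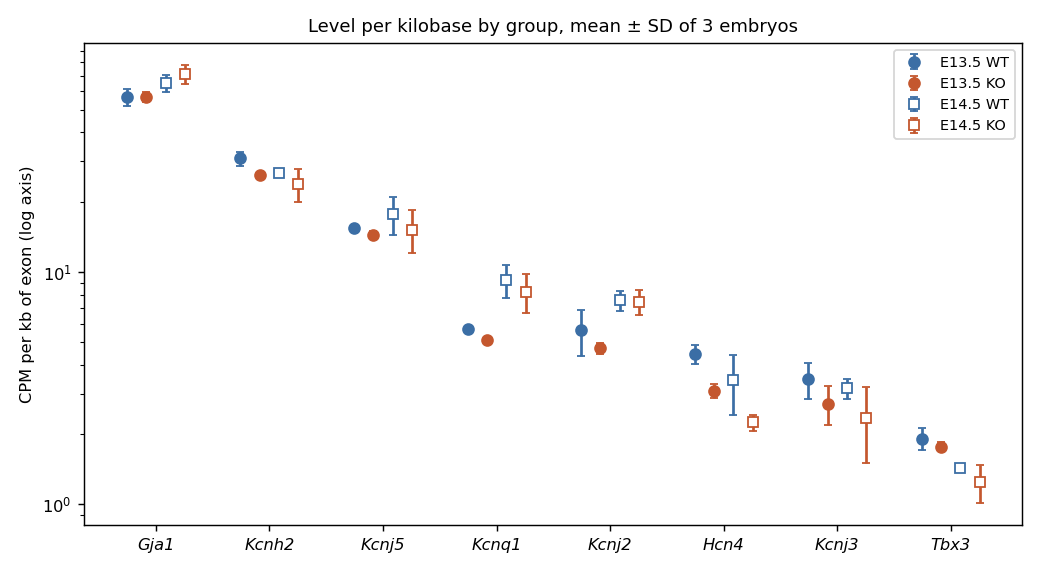
Level per kilobase of merged exon (CPM per kb, log axis) of the 8 genes in the 4 groups, as mean ± SD of 3 embryos. Gja1, Kcnh2 and Kcnj5 are highest in every group, and Tbx3 is lowest.

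Libraries held 46556032 to 182545647 counts. Markers of heart muscle were abundant in every library, and markers of lung, liver and other tissue summed to at most 3.85 CPM, with the lung gene Sftpc at 0 in 11 of 12 libraries. Ino80 was 30.7 to 36.6 CPM in E13.5 WT and 29.6 in each E13.5 KO heart, and 30.8 to 33.8 in E14.5 WT against 27.0 to 31.9 CPM in E14.5 KO hearts. Its averaged KO difference was -0.15 ± 0.06 on the log2 scale (adjusted p = 0.2202, edgeR). Whole hearts hold many cell types besides endothelium, and the labels do not say which part of Ino80 was deleted. The libraries E13.5 KO 5 and E14.5 KO 2 stood apart: 6 macrophage markers summed to 9.32 and 14.3 CPM there, against 48.1 to 65.8 CPM in the 6 WT hearts. The other KO hearts measured 21.6 and 39.7 CPM at E13.5, below every WT heart, and 58.3 and 67.6 CPM at E14.5, above every E14.5 WT heart. All 6 markers were below 0 in KO at E13.5 (median log2 difference -1.67), and none of them passed. Calls that are lost without this pair of libraries, and averaged differences of the 8 genes that move by more than 1.5 times, are given both ways. In bulk RNA, fewer cells of a type and less RNA per cell cannot be told apart.

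Hcn4 was the one gene of the 8 that passed the test between genotypes, and it was lower in KO hearts at both stages. It lies on the plus strand at chr9:58823412-58863175 (GRCm38). At E13.5 it measured 24.96, 30.10 and 26.44 CPM in WT 1, 4 and 2, and 19.9, 17.4 and 19.3 CPM in KO 3, 5 and 7. At E14.5 it measured 20.1, 27.3 and 15.3 CPM in WT 8, 7 and 7.2, and 13.4, 15.1 and 12.9 CPM in KO 2, 4 and 1. Every KO heart lay below every WT heart of its stage, although WT 7.2 lay just above KO 4. The group means were 27.2 ± 2.64 in WT and 18.9 ± 1.29 CPM in KO at E13.5 (SD, n = 3). At E14.5 they were 20.9 ± 6.03 in WT and 13.8 ± 1.11 CPM in KO. Within litter 2 the KO hearts measured 13.4 and 15.1 against 20.1 and 27.3 CPM in WT, and within litter 3 the KO heart measured 12.9 against 15.3 CPM in WT.

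Averaged over the stages, the log2 level of Hcn4 fell by 0.56 ± 0.12 (95% interval -0.81 to -0.31), a 1.48-fold lower level. This passed edgeR's quasi-likelihood test with Benjamini-Hochberg adjustment over all genes (adjusted p = 0.03396), as did 1.42% of all genes tested. At each stage alone it did not pass: the log2 difference was -0.52 ± 0.16 at E13.5 (adjusted p = 0.2971, edgeR) and -0.60 ± 0.16 at E14.5 (adjusted p = 0.2004, edgeR). Macrophage markers were lower in all 3 E13.5 KO hearts as well, and their part in the Hcn4 value was not tested. The difference between the 2 stage values of Hcn4 was -0.07 ± 0.23 (95% interval -0.57 to 0.42; adjusted p = 0.9973, edgeR interaction test). The averaged call was kept with litter as a block (-0.55, adjusted p = 0.0109) and without litter 3 (-0.63, adjusted p = 0.00673), both in edgeR, and DESeq2 made it too. It was lost without E13.5 KO 5 and E14.5 KO 2 together (-0.53, adjusted p = 0.209) and with Y-linked expression as a covariate (-0.55, adjusted p = 0.0519), both in edgeR. It was also lost when any one of 9 libraries was left out. Those were E13.5 WT 1 (adjusted p = 0.0591, edgeR), WT 4 (0.102) and WT 2 (0.0680), E13.5 KO 3 (0.0661), KO 5 (0.0963) and KO 7 (0.0761), and E14.5 WT 8 (0.0552), KO 2 (0.0939) and KO 1 (0.0554). The log2 difference stayed between -0.65 and -0.44 in these 12 fits.

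**Figure D2:**
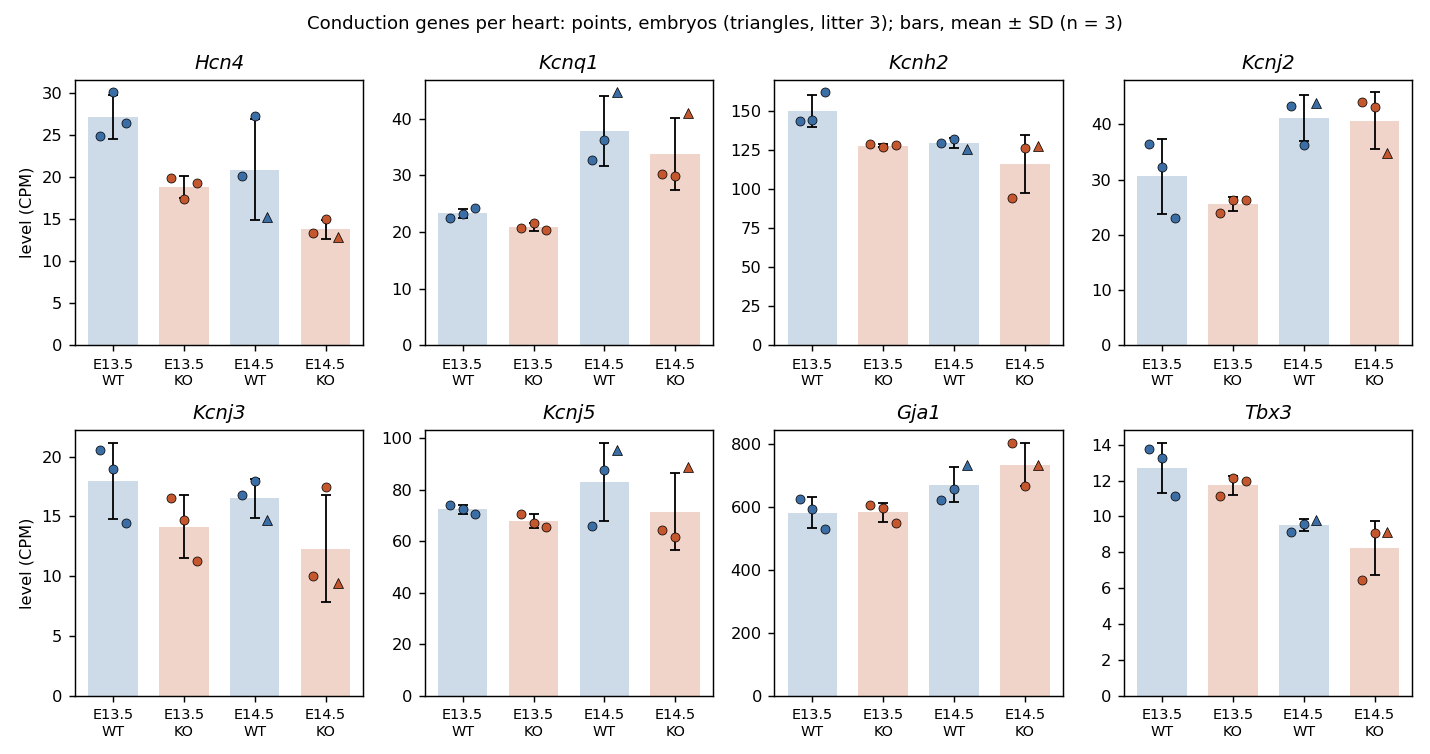
Level (CPM) of the 8 genes in each of the 12 hearts (points; triangles are litter 3), with bars and error bars for the mean ± SD of 3 embryos per group. The KO points of Hcn4 lie below the WT points of the same stage at both stages, and Kcnq1 is higher at E14.5 than at E13.5 in both genotypes.

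Hcn2 and Hcn3, which encode channels of the same family, were far below Hcn4. Hcn2 was 0.799 to 1.62 and Hcn3 0.520 to 1.14 CPM over the 12 hearts. Neither passed the averaged test, with log2 differences of 0.27 ± 0.16 (Hcn2) and -0.22 ± 0.20 (Hcn3) and adjusted p-values of 0.4629 and 0.66 (edgeR).

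Tbx3, the repressor that marks conduction tissue, differed little between genotypes. It lies on the plus strand at chr5:119670669-119684724 and shares 115 bases of exon (1.74%) with the antisense gene Tbx3os1, which was 0.0443 to 0.552 CPM. At E13.5 it measured 13.7, 13.3 and 11.1 CPM in WT 1, 4 and 2, and 11.1, 12.1 and 12.0 CPM in KO 3, 5 and 7. The E14.5 levels were 9.14, 9.59 and 9.82 CPM in WT 8, 7 and 7.2, and 6.48, 9.09 and 9.13 CPM in KO 2, 4 and 1. The genotypes overlapped at E13.5. At E14.5 they did not, but KO 4 and KO 1 lay just below the lowest WT heart and KO 2, a library that stood apart, lay far below. The averaged log2 difference was -0.16 ± 0.09 (95% interval -0.36 to 0.03; adjusted p = 0.4201, edgeR), and -0.103 without the pair of libraries that stood apart. With stage, Tbx3 moved down. In KO hearts its log2 level fell by 0.51 ± 0.13 (adjusted p = 0.0447, edgeR), and in WT hearts the difference was -0.42 ± 0.13 without passing (adjusted p = 0.07657, edgeR), although DESeq2 called it (adjusted p = 0.0257). All E14.5 hearts lay below all E13.5 hearts of their genotype. All E13.5 hearts come from litter 1, so a fit with litter as a block sets litter 3 apart, and its stage value in essence compares litter 2 with litter 1. The call in KO was lost with litter as a block (-0.56, adjusted p = 0.0577, edgeR), with Y-linked expression as a covariate (-0.51, 0.0672), without E13.5 KO 5 and E14.5 KO 2 (-0.34, 0.192) and when only the KO libraries were fitted (-0.51, 0.105). It was kept in 3 of the 12 fits that left out 1 library, those without E13.5 WT 2, E14.5 KO 4 or E14.5 WT 7.2. The 9 others gave adjusted p-values of 0.0560 to 0.140 (edgeR).

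Of the 3 repolarising channel genes, 2 passed between stages and none between genotypes. Kcnq1 (chr7:143106362-143427042, plus strand) was the clearest. At E13.5 it measured 22.5, 23.1 and 24.2 CPM in WT 1, 4 and 2, and 20.6, 21.6 and 20.4 CPM in KO 3, 5 and 7. At E14.5 it measured 32.7, 36.2 and 44.6 CPM in WT 8, 7 and 7.2, and 30.2, 29.9 and 41.0 CPM in KO 2, 4 and 1. The stages did not overlap in either genotype, and the litter 3 heart was the highest of its group in both. The log2 level of Kcnq1 rose by 0.70 ± 0.13 in WT (adjusted p = 0.02197) and by 0.69 ± 0.13 in KO (adjusted p = 0.01735, both edgeR), 1.63-fold and 1.61-fold. With litter as a block the values were 0.56 (adjusted p = 0.00571) and 0.54 (0.00312), and from litter 2 alone 0.56 (0.0137) and 0.52 (0.0071), all edgeR. Both settings in essence compare litter 2 with litter 1, so they are not separate checks and do not part litter from stage. The WT call was lost without E13.5 WT 1 (adjusted p = 0.0881, edgeR), E13.5 WT 4 (0.0663) or E14.5 WT 7.2 (0.0886). The KO call was lost without E13.5 KO 3 (0.0604), KO 5 (0.0540) or KO 7 (0.0709), without E14.5 KO 1 (0.0502), and without E13.5 KO 5 and E14.5 KO 2 together (0.79, adjusted p = 0.0544, edgeR).

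Between genotypes Kcnq1 did not pass. At E13.5 no KO heart reached the lowest WT heart, while the groups overlapped at E14.5, and the averaged log2 difference was -0.16 ± 0.09 (95% interval -0.35 to 0.03; adjusted p = 0.4203, edgeR). The antisense gene Kcnq1ot1 shares 121 bases of exon with Kcnq1 (2.96% of its exon length). No source used here says whether strand was used in the counting. Kcnq1ot1 was 5.61 to 10.6 CPM and passed in no comparison. Its stage difference in WT was -0.07 ± 0.21, where that of Kcnq1 was 0.70.

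Kcnj2 (chr11:111066164-111076821, plus strand) was likewise higher at the later stage. It measured 36.4, 32.3 and 23.0 CPM in E13.5 WT 1, 4 and 2, and 24.0, 26.3 and 26.4 CPM in E13.5 KO 3, 5 and 7. The E14.5 levels were 43.2, 36.3 and 43.8 CPM in WT 8, 7 and 7.2, and 44.0, 43.2 and 34.8 CPM in KO 2, 4 and 1. The stages were apart in KO but just overlapped in WT, where E13.5 WT 1 stood just above E14.5 WT 7. The log2 level of Kcnj2 rose by 0.67 ± 0.15 in KO (adjusted p = 0.03236, edgeR), and in WT the difference was 0.43 ± 0.15 (adjusted p = 0.1115, edgeR; called by DESeq2, adjusted p = 0.0483). The difference between these stage effects, which is the same contrast as that between the KO effects, was 0.25 ± 0.21 (adjusted p = 0.9973, edgeR), so its stage change was not shown to differ between genotypes. The KO call was lost with litter as a block (0.70, adjusted p = 0.0564, edgeR), with Y-linked expression as a covariate (0.65, 0.0559) and without E13.5 KO 5 and E14.5 KO 2 (0.63, 0.153). It was also lost without any one of the 6 KO libraries, with adjusted p-values of 0.0502 to 0.110 (edgeR). Between genotypes the averaged log2 difference was -0.14 ± 0.10 (adjusted p = 0.566, edgeR), and the groups overlapped at both stages.

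Kcnh2 (chr5:24319589-24351604, minus strand) did not pass in any comparison. At E13.5 it measured 143.5, 143.7 and 161.6 CPM in WT 1, 4 and 2, and 128.4, 126.4 and 127.9 CPM in KO 3, 5 and 7. At E14.5 it measured 129.5, 131.9 and 125.6 CPM in WT 8, 7 and 7.2, and 94.3, 125.8 and 127.4 CPM in KO 2, 4 and 1. The genotypes did not overlap at E13.5. At E14.5 they did, and KO 2 lay far below the other 5 hearts. The averaged log2 difference was -0.19 ± 0.07 (95% interval -0.34 to -0.05; adjusted p = 0.1942, edgeR), and -0.126 without the pair of libraries that stood apart.

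The acetylcholine-activated pair gave lower mean values in KO hearts at both stages without passing the test. Kcnj3 (chr2:55435970-55598145, plus strand) measured 20.6, 19.0 and 14.4 CPM in E13.5 WT 1, 4 and 2, and 16.5, 14.7 and 11.3 CPM in E13.5 KO 3, 5 and 7. The E14.5 levels were 16.80, 17.99 and 14.73 CPM in WT 8, 7 and 7.2, and 10.01, 17.45 and 9.43 CPM in KO 2, 4 and 1. The groups overlapped at both stages, and KO 4 stood among the WT hearts at E14.5. After Hcn4, Kcnj3 had the largest averaged difference of the 8 genes and the widest error, -0.39 ± 0.16 on the log2 scale (95% interval -0.74 to -0.03; adjusted p = 0.3061, edgeR). Without E14.5 KO 4 it passed (-0.56, adjusted p = 0.0346, edgeR), so 1 library decides that call. The lincRNA Gm26794, on the opposite strand, covers 1621 bases of Kcnj3 exon (31.08%), so reads of the pair cannot be told apart if strand was not used. Its mean was 0.369 to 0.816 CPM over the 4 groups.

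Kcnj5 (chr9:32314707-32344350, minus strand), the partner subunit, was more even at E13.5, with 73.9, 72.7 and 70.7 CPM in WT 1, 4 and 2 and 70.7, 67.2 and 65.4 CPM in KO 3, 5 and 7. At E14.5 it spread widely: 65.9, 87.8 and 95.3 CPM in WT 8, 7 and 7.2, and 64.2, 61.7 and 88.7 CPM in KO 2, 4 and 1. As for Kcnq1, the litter 3 heart was the highest of each E14.5 group. The averaged log2 difference was -0.16 ± 0.10 (95% interval -0.38 to 0.06; adjusted p = 0.503, edgeR). Neither gene of the pair passed between stages, and the log2 differences in WT were -0.13 ± 0.23 for Kcnj3 and 0.20 ± 0.14 for Kcnj5.

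Gja1 (chr10:56377330-56402513, plus strand) was the one gene of the 8 whose averaged KO difference was above 0. At E13.5 it measured 624.6, 592.2 and 528.4 CPM in WT 1, 4 and 2, and 604.8, 595.3 and 547.6 CPM in KO 3, 5 and 7. At E14.5 it measured 622.1, 655.5 and 731.7 CPM in WT 8, 7 and 7.2, and 803.3, 664.6 and 733.6 CPM in KO 2, 4 and 1. The genotypes overlapped at both stages. Its averaged log2 difference was 0.07 ± 0.06 (95% interval -0.07 to 0.20; adjusted p = 0.6687, edgeR), and 0.0237 without the pair of libraries that stood apart. At E13.5 the value was close to 0, and it turned below 0 with RLE size factors (-0.000483). The E14.5 KO hearts lay above the E13.5 KO hearts, a log2 difference of 0.33 ± 0.09 that did not pass in edgeR (adjusted p = 0.05866). DESeq2 called it (adjusted p = 0.0111), and edgeR did without E14.5 KO 4 (0.40, adjusted p = 0.0341) or E14.5 WT 7.2 (0.34, adjusted p = 0.0421). In WT the stage difference was 0.20 ± 0.09 (adjusted p = 0.2023, edgeR).

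**Figure D3:**
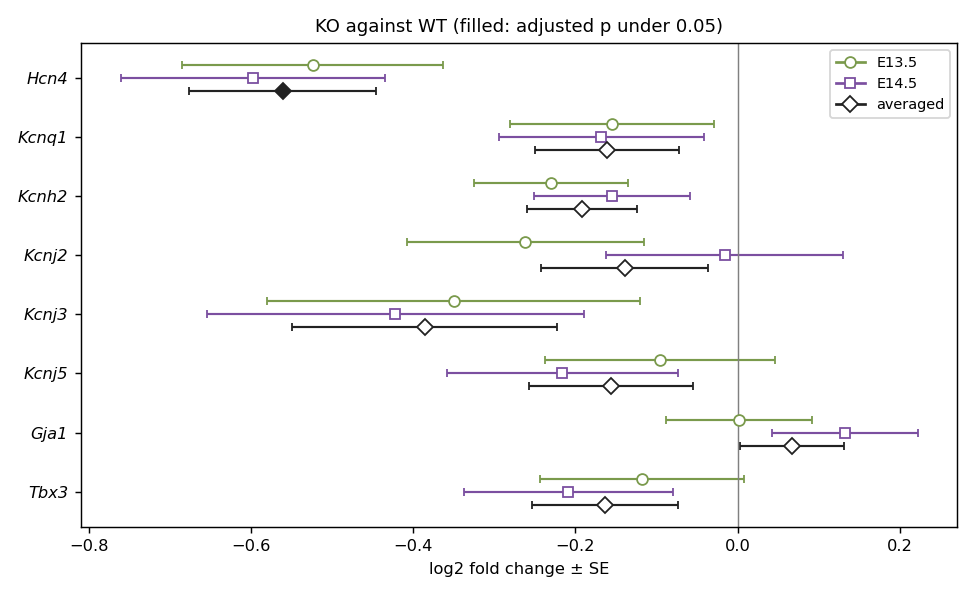
Log2 fold change of KO against WT ± SE for the 8 genes in the average of both stages and at each stage alone; filled symbols passed the test. Hcn4 lies farthest below 0 at both stages and passed in the average alone.

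Read together, the genotype contrast touched 1 of the 8 genes and the stage contrast 3. No gene of the 8 passed at E13.5 in edgeR, where 0.106% of all genes did. An unadjusted p under 0.05 was held there by 2 of the 8, and by 2137 of the 20691 genes tested. None passed at E14.5 in edgeR, where 0.222% of all genes did. At that stage 1 of the 8, and 1986 of the 20691 genes tested, had an unadjusted p under 0.05. DESeq2 called none of the 8 at E13.5 and Hcn4 at E14.5, where it called 1.63% and 1.74% of all genes. The KO effect was not shown to differ between the stages for any of the 8 (0% of all genes passed, 746 genes and none of the 8 had an unadjusted p under 0.05, and DESeq2 called 0 too). The 95% intervals of that difference were wide, such as -0.79 to 0.65 for Kcnj3. Averaged over the stages, 7 of the 8 were below 0 with a median of -0.16, where the median over all genes tested was -0.002. In the same average, 6 ventricular markers had a median of -0.143 and 7 markers of working heart muscle a median of -0.115. Other marker lists lay on both sides of 0. Medians were -0.039 for atrial, -0.139 for erythroid and -0.933 for macrophage markers. They were 0.03 for endothelial, 0.121 for epicardial and fibroblast and 0.238 for smooth muscle and pericyte markers. At E13.5, 3 of the 8 did not overlap between genotypes (Hcn4, Kcnq1 and Kcnh2), as did 19.6% of all genes, and 2 at E14.5 (Hcn4 and Tbx3), as did 12.7%. Hcn4 alone of the 8 was apart in the same direction at both stages, a pattern that 3.25% of all genes tested had.

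Between stages, 1 of the 8 passed in WT (Kcnq1), where 4.04% of all genes did, and 3 in KO (Kcnq1, Kcnj2 and Tbx3), where 3.74% did. In WT, 3 of the 8 (Kcnq1, Kcnh2 and Tbx3) did not overlap between the stages, as did 29.5% of all genes. In KO it was 5 (Hcn4, Kcnq1, Kcnj2, Gja1 and Tbx3), against 24.9%. Kcnq1 and Tbx3 were apart in the same direction in both genotypes, as were 11.6% of all genes. Hcn4 moved the same way as Tbx3 in its means, with a stage difference of -0.38 ± 0.16 in WT (adjusted p = 0.19, edgeR) and -0.45 ± 0.16 in KO (adjusted p = 0.1395, edgeR). Single libraries moved the WT value between -0.625 and -0.198, and it passed without E14.5 WT 7 (adjusted p = 0.0353, edgeR). The KO value passed without E14.5 WT 7.2 (adjusted p = 0.0461, edgeR). The direction of the members was split, 4 above and 4 below 0 in each genotype.

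**Figure D4:**
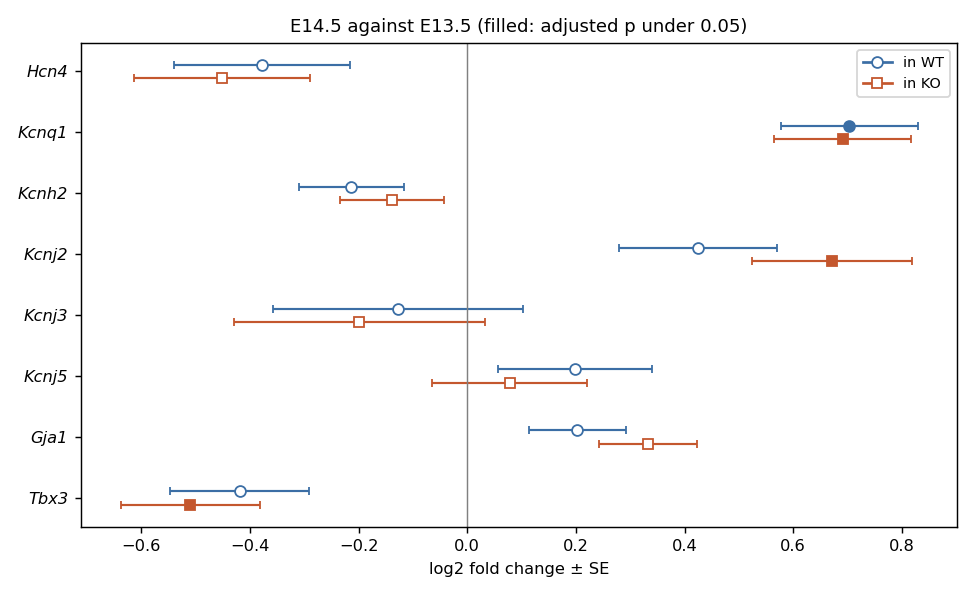
Log2 fold change of E14.5 against E13.5 ± SE for the 8 genes in WT and in KO; filled symbols passed the test. Kcnq1 passed in both genotypes, and Kcnj2 and Tbx3 in KO.

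A further 6 lists of related genes, 91 of which were tested, gave the setting of these results. The lists were chosen with earlier results of these data known. A higher share of calls in them than over all genes is therefore not a test of the lists. Averaged over the stages, 7 of the 91 passed between genotypes, 2 up and 5 down, where 1.42% of all genes passed. At E14.5 alone 4 of the 91 passed, where 0.222% of all genes did. None passed at E13.5 in edgeR, where 0.106% of all genes did. An unadjusted p under 0.05 was held there by 14 of the 91, and by 2137 of the 20691 genes tested. DESeq2 called 5 of the 91 at E13.5, and 1.63% of all genes. Among 17 other pacemaker and sinus node genes, 2 fell and none rose, with a median of -0.19. Cacna1g, a T-type calcium channel gene that contributes to pacemaker depolarisation, measured 22.6, 30.1 and 22.5 CPM in E13.5 WT and 14.7, 20.9 and 18.7 CPM in E13.5 KO hearts. The later values were 41.7, 45.9 and 46.2 CPM in WT and 25.2, 32.2 and 28.8 CPM in KO. No KO heart reached a WT heart of its stage. Its log2 level fell by 0.55 ± 0.10 (adjusted p = 0.01817, edgeR), about as far as Hcn4. The call was lost without litter 3 (-0.54, adjusted p = 0.0713, edgeR) and, narrowly, without E14.5 KO 2 (-0.51, 0.0501). It just missed the threshold without the pair of libraries that stood apart (-0.57). Smoc2, a matricellular gene, fell by 0.36 ± 0.07 (adjusted p = 0.0227, edgeR). That call was lost without E13.5 WT 1, WT 4, KO 3 or KO 7, without E14.5 WT 8, WT 7 or KO 2 (adjusted p = 0.0523 to 0.0679, edgeR), and without the pair that stood apart (0.0697). Node transcription factors gave no call: the averaged log2 difference was -0.09 ± 0.31 for Shox2, 0.62 ± 0.52 for Isl1 and 0.00 ± 0.10 for Tbx18.

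Among 22 other potassium channel subunits, edgeR called 1 up and 1 down in the average. Of the 22, 16 were below and 6 above 0, with a median of -0.18. An unadjusted p under 0.05 was held by 9 of them, and by 3045 of the 20691 genes tested. DESeq2 called 5, Kcne1 and Kcnd2 among them, and 4.52% of all genes. Kcne1, whose small protein joins the Kcnq1 pore to make the slow delayed rectifier, measured 90.4, 67.5 and 84.4 CPM in E13.5 WT and 102.0, 98.4 and 106.4 CPM in E13.5 KO hearts. The later values were 86.1, 96.2 and 89.9 CPM in WT and 142.3, 120.2 and 157.9 CPM in KO. No KO heart was as low as any WT heart of its stage. The log2 level of Kcne1 rose by 0.48 ± 0.08 (adjusted p = 0.009836, edgeR), while its partner Kcnq1 had a difference of -0.16. Kcnd2, a transient outward channel gene, measured 11.9, 9.58 and 10.4 against 8.81, 8.90 and 6.85 CPM at E13.5, and 12.9, 13.8 and 14.45 against 6.76, 9.16 and 6.15 CPM at E14.5 (WT against KO). It fell by 0.64 ± 0.11 (adjusted p = 0.01095, edgeR). Both calls were kept when any 1 library was left out, and were lost without E13.5 KO 5 and E14.5 KO 2 together (Kcne1 0.49, adjusted p = 0.0628; Kcnd2 -0.64, adjusted p = 0.0598; edgeR). At E14.5 alone both passed as well (Kcne1 0.63, adjusted p = 0.03628; Kcnd2 -0.90, adjusted p = 0.02832; edgeR). Those calls were less stable, with 4 and 7 of the 12 fits that left out 1 library keeping them, and without the pair neither was kept (Kcne1 0.61, adjusted p = 0.218; Kcnd2 -0.84, adjusted p = 0.195; edgeR).

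Of 10 sodium and calcium channel subunits, 1 rose and none fell, with a median of -0.08. The L-type calcium channel gene Cacna1c was at -0.25 ± 0.10 (adjusted p = 0.2859, edgeR).

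In the ventricular conduction system, 1 of 16 genes fell and none rose, with a median of -0.05. Cpne5, a copine gene, fell by 0.67 ± 0.12 averaged over the stages (adjusted p = 0.01375) and by 1.07 ± 0.17 at E14.5 (adjusted p = 0.02407, both edgeR). There it measured 19.5, 23.0 and 17.4 CPM in WT and 9.32, 10.7 and 8.54 CPM in KO. The averaged call was kept in all 12 fits that left out 1 library and lost without the pair that stood apart (-0.65, adjusted p = 0.116, edgeR), as was the call at E14.5 (-1.05, adjusted p = 0.195, edgeR). Gja5, which encodes connexin 40 of atria and Purkinje fibres, was at -0.31 ± 0.15 (adjusted p = 0.3814, edgeR), and Gjc1, which encodes connexin 45 of the nodes, at -0.04 ± 0.06 (adjusted p = 0.7781, edgeR). Of the 13 gap junction and intercalated disc genes, none passed the averaged test in edgeR (median -0.09). An unadjusted p under 0.05 was held by 2 of them, and by 3045 of the 20691 genes tested. DESeq2 called 1, Dsg2, and 4.52% of all genes. The muscarinic and adrenergic list had 1 of 13 called, with a median of -0.07: Gnas, the stimulatory G protein alpha subunit, fell by 0.46 ± 0.08 (adjusted p = 0.01896, edgeR), a call lost without E13.5 KO 5 (0.0555), E13.5 KO 7 (0.0530) or the pair that stood apart (-0.37, adjusted p = 0.0807, edgeR). The muscarinic receptor gene Chrm2, upstream of the Kcnj3 and Kcnj5 channel, was at 0.00 ± 0.07.

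**Figure D5:**
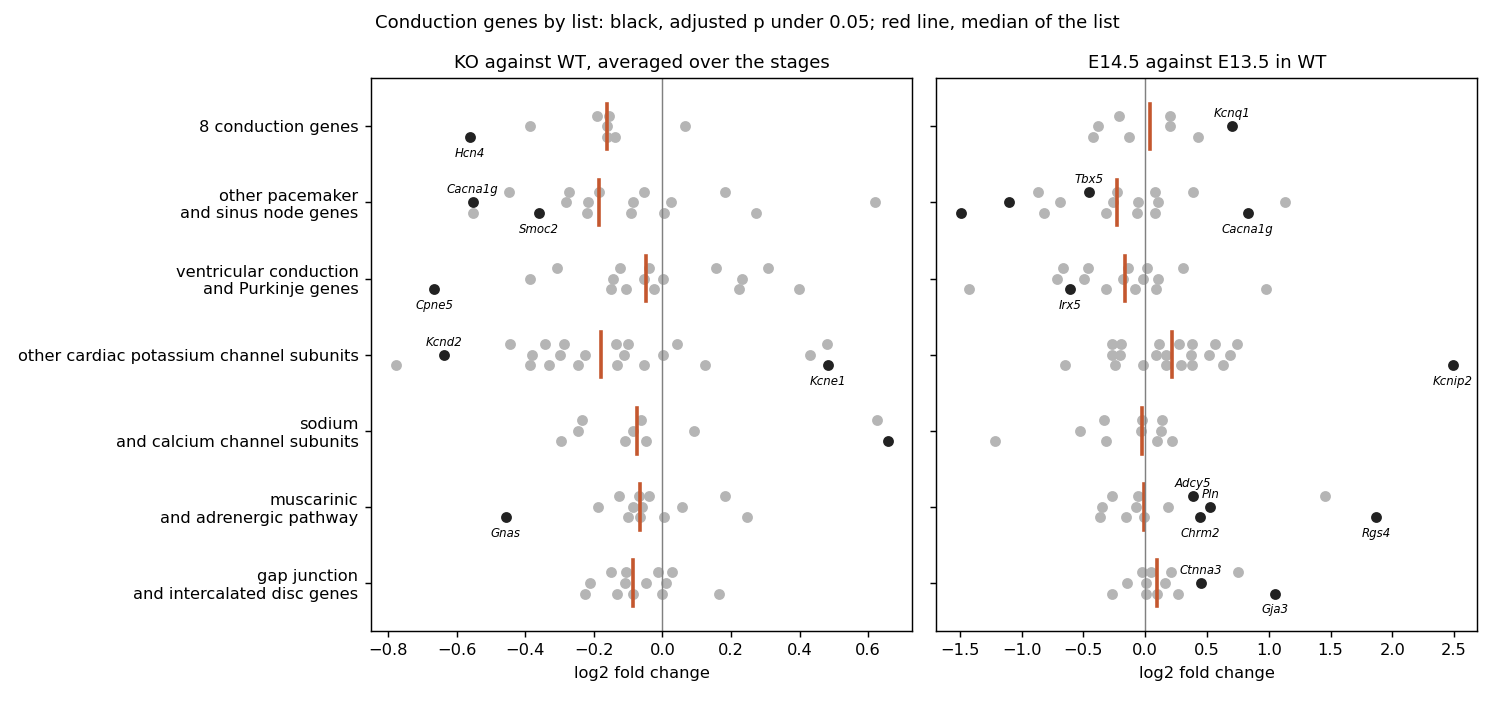
Log2 fold change of each tested gene by list, for KO against WT averaged over the stages (left) and for E14.5 against E13.5 in WT (right). Black points passed the test, and most of them are named, grey points did not, and the red line is the median of the list; Hcn4, Cacna1g, Kcnd2 and Cpne5 lie below 0 on the left, and Kcne1 above.

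Between stages 12 of the 91 passed in WT (8 up, 4 down), where 4.04% of all genes did, and 18 in KO (11 up, 7 down), where 3.74% of all genes did. Calls between stages were thus more frequent than between genotypes over all genes too. How the lists were chosen limits a reading of their shares here as well. On the log2 scale, among pacemaker genes, Cacna1g rose by 0.83 ± 0.14 in WT and 0.67 ± 0.14 in KO (adjusted p = 0.01979 and 0.02901, edgeR). Its WT call was kept in 9 and its KO call in 8 of 12 fits that left out 1 library. Tbx5, an activator of conduction genes, fell by 0.46 ± 0.09 in WT and 0.38 ± 0.09 in KO (adjusted p = 0.02667 and 0.04543, edgeR), kept in 8 and 4 fits. No call between stages among these genes was kept in all 12 fits. Among potassium channel genes, Kcnip2, a subunit of the transient outward channel, rose in both genotypes, by 2.49 ± 0.58 in WT and 2.55 ± 0.59 in KO (adjusted p = 0.04556 and 0.04524, edgeR; kept in 3 of 12 fits each). In KO, Kcnj8, an ATP-sensitive channel gene, rose by 1.11 ± 0.20 (adjusted p = 0.01791, edgeR; kept in 9 of 12 fits). Kcnj12, which encodes an inward rectifier subunit related to Kcnj2, rose by 0.65 ± 0.15 in KO (adjusted p = 0.03265, edgeR; kept in 8 fits). Kcnk3, a background channel gene, fell by 0.90 ± 0.19 in KO (adjusted p = 0.03459, edgeR; kept in 4 fits).

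Genes of autonomic control and of cell contacts also moved with stage. Phospholamban (Pln), a brake on calcium reuptake, rose by 0.53 ± 0.10 in WT and 0.59 ± 0.10 in KO (adjusted p = 0.02327 and 0.01403, edgeR; kept in 8 and 10 fits). Chrm2 rose by 0.45 ± 0.10 in WT and 0.41 ± 0.10 in KO (adjusted p = 0.03204 and 0.03965, edgeR; kept in 7 and 6 fits). Rgs4, which shortens G protein signals, rose by 1.87 ± 0.41 in WT from a mean of 1.02 CPM (adjusted p = 0.03269, edgeR; kept in 6 fits). Gja3, which encodes connexin 46, rose by 1.05 ± 0.15 in WT (adjusted p = 0.015, edgeR; kept in 10 fits). Ctnna3, a catenin of the intercalated disc, rose by 0.45 ± 0.10 in WT and 0.52 ± 0.10 in KO (adjusted p = 0.03269 and 0.02116, edgeR; kept in 7 and 9 fits). In the ventricular conduction list, Irx5 fell by 0.61 ± 0.10 in WT (adjusted p = 0.01877, edgeR; kept in 9 fits) and Cpne5 by 0.82 ± 0.16 in KO (adjusted p = 0.02224, edgeR; kept in 8 fits). Without E13.5 KO 5 and E14.5 KO 2, the WT calls of Kcnip2 (adjusted p = 0.0821, edgeR), Rgs4 (0.0563) and Ctnna3 (0.0505) were lost. In KO, that setting lost the calls of Tbx5 (adjusted p = 0.160, edgeR), Kcnip2 (0.172), Kcnk3 (0.132), Chrm2 (0.203), Pln (0.0707), Ctnna3 (0.0706) and Cpne5 (0.112). It kept Cacna1g, Kcnj8 and Kcnj12.

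Markers of other cell types moved beside some of these comparisons. Summed over their lists, 6 ventricular markers were 11400 to 12360 CPM in E13.5 WT and 10600 to 12340 CPM in E13.5 KO, and 13040 to 15450 CPM in E14.5 WT against 11260 to 14900 CPM in E14.5 KO hearts. Gja5, described above as a gene of atria and Purkinje fibres, is among these ventricular markers. Both Gja5 and Irx4 are in the ventricular conduction list as well. The 6 atrial markers were 1497 to 1729 CPM in WT against 1592 to 1851 in KO at E13.5, and 1255 to 1523 against 1264 to 1331 CPM at E14.5. None of these 12 genes passed between genotypes in the average, and the summed ranges overlapped at both stages. In that average all 6 ventricular markers were below 0 (median -0.143). Of the 6 atrial markers 4 were below and 2 above 0 (median -0.039). Of 7 markers of working heart muscle, 5 were below and 2 above 0 (median -0.115), and none passed. Of 6 endothelial markers, Pecam1 (CD31, an adhesion protein of endothelium) fell by 0.62 ± 0.08 at E13.5 (adjusted p = 0.008088) and by 0.47 ± 0.05 in the average (adjusted p = 0.000785, both edgeR). The other 5 endothelial markers did not pass. Of the 6 with Pecam1, 4 were above and 2 below 0 in the average (median 0.03). The list had 2 above and 4 below 0 at E13.5 (median -0.12), and 5 above and 1 below at E14.5 (median 0.192). The sum of the 6 did not overlap at E13.5, with 788.1 to 886.0 CPM in WT and 749.8 to 778.5 CPM in KO. It did at E14.5, with 696.8 to 860.3 against 805.3 to 873.1 CPM. Of 6 smooth muscle and pericyte markers, Cnn1, a calponin of smooth muscle, rose by 0.34 ± 0.06 in the average (adjusted p = 0.01095, edgeR), and the summed levels overlapped at both stages. Between stages in WT, 3 of the 6 atrial markers fell (Bmp10, Nr2f1 and Nr2f2; list median -0.32), beside the lower means of Hcn4 and Tbx3. In KO, where Tbx3 passed, 1 of the 6 fell (Myl4, -0.46), and Nr2f1 was at -0.40 without passing. Bmp10 was at -0.05 and Nr2f2 at 0.03, and the list median was -0.03, with 4 markers below and 2 above 0. The summed atrial levels, which are mostly Myl4, did not overlap between the stages in KO and did in WT. Rgs5, a pericyte gene, rose between stages and Cnn1 fell in both genotypes, and in KO Pecam1 and the ventricular gene Hey2 rose. The 6 erythroid markers were 3554 to 10790 CPM at E13.5 and 3905 to 41730 CPM at E14.5, highest in E14.5 KO 1, and none of them was called between stages. The 4 Y-linked genes were high in 1 of 3 E13.5 WT and 2 of 3 E13.5 KO hearts, and in 1 of 3 hearts of each genotype at E14.5. The part of these cell types, of sex or of litter in the results above was not tested beyond the fits with a covariate, a block or libraries left out.

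As a description with no test, the genes most like each of the 8 were sought, and are given for 7, by Pearson's r of log2 CPM over the 12 libraries, among 12378 genes whose mean reached 1 CPM. The libraries share stage, litter and genotype differences, which raise such values. Hcn4 was most like Panx2 (r = 0.964), a pannexin gene, with r = 0.919 over the E13.5 and 0.966 over the E14.5 hearts. Kcnq1 was most like Asb11 (0.981) and Kcnh2 like Sox12 (0.979). Kcnj3 was most like Dnah6 (0.940), Kcnj5 like Prdm2 (0.945), Gja1 like Kat2b (0.955) and Tbx3 like Smad9 (0.968).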

How the data were processed

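The authors deposited a table of raw counts, unnormalised, with 1 row per gene symbol, for 12 hearts. Tools named in the submitters' processing notes are STAR 2.5.3a, featureCounts, DESeq2 and DESeq, with build GRCm38 and no roles. Strand use, multi-mapping and annotation release are not given there. Spreadsheet dates replaced 27 symbols, none among the genes named here.

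Counts were fitted with edgeR 4.0.16 (R 4.3.3): filterByExpr left 20691 genes, TMM scaling, 1 robust quasi-likelihood fit to the 4 group means (8 residual degrees of freedom), two-sided F-tests and Benjamini-Hochberg adjustment over all genes, threshold 0.05. The common biological coefficient of variation was 17.1%. An SE was taken as the size of a log2 fold change over the square root of its F. The p-values measure the spread between embryos. The code was tested on simulated data, and a check of the counts of library pairs within each group found no copied library. Pairs from different groups were not checked.

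Alternatives were: leaving out each library, litter 3, or E13.5 KO 5 with E14.5 KO 2; litter as a block; Y-linked expression as a covariate; fitting only the groups compared; dropping the low-count filter; RLE size factors; and DESeq2 1.42.0 (Wald test). A fit without robust estimation was added after seeing the data. Litter labels pair embryos of both genotypes at E14.5, where deviations from group means correlated across genes at a mean of 0.00399 in the same litter and -0.00501 between litters. Title numbers do not pair them.

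All 8 genes were named in every comparison; of each list, up to 3 called genes by smallest p and up to 4 more by role. The genes, lists and this rule were chosen with earlier results of these data known. Kcne5 of the potassium list had no row under that symbol and was left out. Some genes that the rule names are not reported here. Coordinates and exon lengths are from GENCODE M21 (GRCm38), promoters from RefSeq.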

Additional observations from a re-analysis of the deposited data

How the results depend on the processing

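The count of the 8 genes that passed between genotypes in the average was 1, and 0 with Y-linked expression as a covariate and without E13.5 KO 5 and E14.5 KO 2. It ranged from 0 to 2 when each library was left out. At E13.5 the count was 0, and 1 (Hcn4, adjusted p = 0.0478, edgeR) when only the libraries compared were fitted. Over all genes that setting called 0.458%, against 0.106% in the main fit. At E14.5 the count was 0, and 1 with DESeq2 (Hcn4, adjusted p = 0.0261). There DESeq2 called 1.74% of all genes, against 0.222% in the main fit. Between stages in WT the count was 1, and 3 with DESeq2, with a range of 0 to 2 when each library was left out. Over all genes DESeq2 called 10.9% in WT, against 4.04% in the main fit. In KO the count was 3, and 4 with DESeq2, which added Gja1. It was 1 with litter as a replicate block (Kcnq1, 0.54), 1 with the Y-linked covariate and 0 without E13.5 KO 5 and E14.5 KO 2. Its range was 0 to 5 when each library was left out. Over all genes DESeq2 called 9.14% in KO, against 3.74% in the main fit. The share was 1.6% with the block, 1.9% with the covariate and 0.613% without the pair. The block lost Kcnj2 and Tbx3 in KO and changed no other call among the 8, but with litter 1 alone at E13.5 it cannot part litter from stage. The count for the difference between KO effects was 0 in all settings. Over all genes, calls for the averaged KO effect went from 293 to 63 without that pair and to 910 with DESeq2, and calls in WT between stages from 836 to 299 with the block and 95 without litter 3. In these cases the cause was not tested.

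Of the single log2 fold changes under all alternatives, 917 kept direction and side of the threshold, 41 lost and 11 gained the call, and 39 turned direction, none of them a called value. Gja1 at E13.5 turned with RLE size factors (-0.000483), no low-count filter (-0.00181), without E13.5 KO 5 and E14.5 KO 2 (-0.0136) and with DESeq2 (-0.00291), and ranged from -0.0685 to 0.0513 when each library was left out. Kcnj2 at E14.5 was 0.135 without litter 3, and -0.091 to 0.0847 with each library left out. The difference between KO effects turned for Kcnq1 (0.000656 with no filter, 0.0019 with the Y-linked covariate, 0.0835 without the pair), Kcnh2 (-0.0209 without litter 3), Kcnj3 (0.0108 without litter 3, 0.0843 without the pair) and Tbx3 (0.0764 without the pair). With each library left out, that difference ranged from -0.177 to 0.128 for Kcnq1, -0.409 to 0.0883 for Kcnj3, -0.17 to 0.0542 for Tbx3 and -0.251 to 0.176 for Hcn4. Between stages, the litter block gave 0.000644 for Kcnj3 in WT and -0.0751 for Kcnj5 in KO, where leaving out litter 3 gave -0.113 and each library -0.106 to 0.17. The cause was not tested. With 3 embryos a group, the error of a log2 difference between genotypes at 1 stage was 0.09 to 0.23 for these genes. Differences several times this error were needed to pass: for Hcn4 at 1 stage, -0.52 and -0.60 with an error of 0.16 did not.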
